A study of Homo sapiens with 6 samples.

Results

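AKR1B10 and 9 other well-known target genes of the transcription factor NRF2 were examined in OVCAR5 and in OVCAR5R, its derivative that is resistant to the CHK1 inhibitor prexasertib (Prex). The 10 genes were AKR1B10, AKR1C1, AKR1C2, AKR1C3, NQO1, GCLM, GCLC, SRXN1, HMOX1, and TXNRD1, and all 10 were found by symbol among the 12308 different rows of the deposited table. They were chosen by their known function and by earlier results of these same libraries, in which AKR1B10 was lower and TXNRD1 tended to be higher in OVCAR5R. Their differences between the lines are therefore given as a description, with no test. Total RNA was sequenced from triplicate cultures of each line. OVCAR5, with 3 libraries, is labelled an ovarian cancer line, is wild-type for BRCA, and is called p53 null by the study. OVCAR5R, also with 3 libraries, was raised in increasing Prex up to 3 µM, was maintained at 2 µM, and was kept off the drug for at least 4 days ahead of use. All cultures were grown in the same serum-containing medium with insulin, and no source used here says whether OVCAR5R is 1 clone or a pool. All groups are cultures of 1 parental line and 1 derivative, so p-values below measure only the spread between these cultures.

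NRF2, encoded by NFE2L2, is a transcription factor that KEAP1 holds in the cytoplasm and hands to a CUL3 ubiquitin ligase for degradation. When electrophiles or oxidants modify KEAP1, NRF2 accumulates, pairs with a small MAF protein, and binds antioxidant response elements near genes for glutathione synthesis, thioredoxin reduction, NADPH supply, and the reduction of carbonyls and quinones. Many tumor cells carry a raised level of this program, and the aldo-keto reductases AKR1B10 and AKR1C1 to AKR1C3 are among its most responsive genes in human cells.

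Values below are the deposited linear normalized signal, which has no unit, always in the order of replicates 1, 2, and 3. The sequencing depth, estimated from the smallest step between values of a library, ranged from 35.8 M to 55.1 M reads on the listed genes (M for mega). Genes reaching 1 in 3 or more libraries, 11766 in all, were compared as log2(value + 1), and each log2 fold change below is OVCAR5R minus OVCAR5 on that scale with its standard error (SE) from limma. In such bulk RNA, fewer cells with a transcript and less of it per cell cannot be told apart. This scale understates the change of genes with low values. The library labelled OVCAR5 replicate 2 stood apart from the other 5. Of the 6 epithelial markers examined, 5 were in the table and EPCAM was at 597 in OVCAR5 replicate 2, against 15.9 and 11.9 in OVCAR5 replicates 1 and 3 and between 16.3 and 31.7 in OVCAR5R. KRT19 was at 1341 there and between 3.1 and 10.7 in the other 5 libraries. KRT7, KRT8, and KRT18 were also highest there, but for each of them every OVCAR5R library exceeded OVCAR5 replicates 1 and 3. KRT7 had 85.8, 939, and 92.7 in OVCAR5 against 431, 465, and 583 in OVCAR5R, so it set OVCAR5 replicates 1 and 3 apart more than replicate 2. The summed epithelial markers ranged from 2255 to 16844 in OVCAR5 and from 3536 to 4715 in OVCAR5R. Of the ovarian serous markers PAX8 was at 8.38 to 11.4 in OVCAR5 and at 4.38 to 5.66 in OVCAR5R, without overlap, WT1 was under 0.8 in every library, and MUC16, ESR1, and SOX17 had no row. Of the 6 fibroblast markers 2 had a row and summed to 1.77 to 15.3 in OVCAR5 and 6.95 to 9.99 in OVCAR5R, and the endothelial markers had no row. Of the 4 leukocyte markers only CD68 had a row, with 40.7 to 68.3 in OVCAR5 and 70.4 to 72.8 in OVCAR5R. Where leaving out OVCAR5 replicate 2 moves the printed log2 fold change of a gene by more than 1.5 times and by more than 0.1, the value without it is given. Medians without it are given only for all pathway genes and for the NADPH supply genes, and other medians may depend on it. What sets this library apart was not tested.

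Of the 10 members, 7 had a lower and 3 a higher mean log2 value in OVCAR5R. For 5 members (AKR1B10, AKR1C1, AKR1C2, AKR1C3, and GCLC) every OVCAR5R library was below every OVCAR5 library, where 8.18% of all tested genes showed this. For 0 members every OVCAR5R library was above, where 8.4% of all tested genes did. With quantile normalization 4 members were lower and 1 higher without overlap, since GCLC then overlapped and TXNRD1 did not. One member, AKR1B10, was among the 14 genes with a limma adjusted p under 0.05, which are 0.119% of the genes tested, and it lost this call when any library other than OVCAR5 replicate 2 was left out (its log2 fold change with any 1 library left out was -3.57 to -2.97). Since the members were selected on this contrast, nothing is read from these counts.

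**Figure D1:**
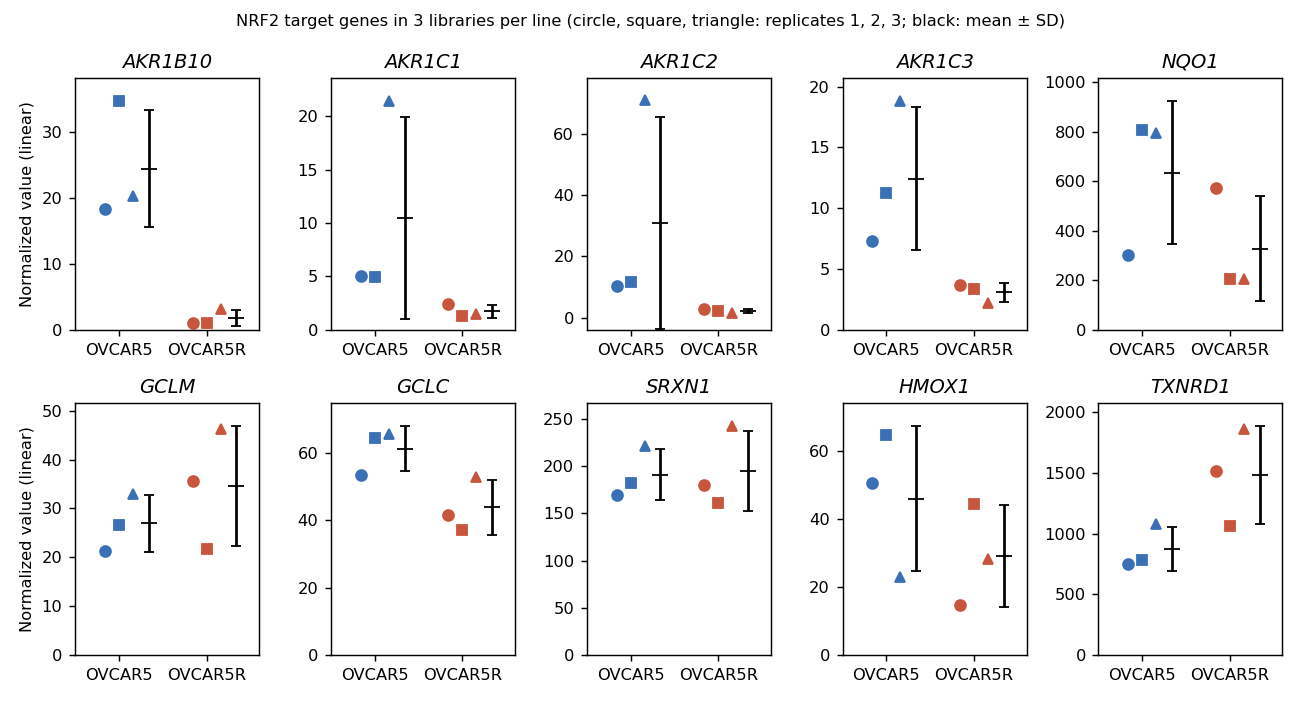
Normalized values (linear axis, no unit) of the 10 NRF2 target genes in each of the 6 libraries, with circles, squares, and triangles for replicates 1, 2, and 3 and black bars for mean ± SD (n = 3). The blue and red points do not overlap for AKR1B10, the 3 AKR1C genes, and GCLC, while those of TXNRD1 nearly separate in the other direction.

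AKR1B10 reduces aldehydes, among them retinaldehyde and products of lipid peroxidation, to alcohols with NADPH. Its position is chr7:134527592-134541408 (plus strand, GRCh38). The values were 18.4, 34.7, and 20.3 in OVCAR5 against 1.07, 1.05, and 3.15 in OVCAR5R. The lines did not overlap, and the lowest OVCAR5 library was well above the highest OVCAR5R library. The means were 24.5 ± 8.91 and 1.76 ± 1.21 (SD, n = 3 each), a 13.9-fold difference on the linear scale. On the log2 scale the difference was -3.24 (SE 0.39), which placed AKR1B10 at rank 18 from the lowest of the 11766 genes. It was -2.97 without OVCAR5 replicate 2. The OVCAR5R values correspond to 57.0, 57.9, and 169 estimated reads. OVCAR5R replicate 3 was thus above the other two on few reads. The transcript is not unique throughout, since 17.4% of the 50-base windows of its longest coding transcript recur in transcripts of other genes, most of them in AKR1B15 (11.6%) and the pseudogene AKR1B10P1 (7.14%).

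Genes around AKR1B10 had no such difference as a group. The 38 tested genes within 5 Mb of its start had a median of 0.02 on the log2 scale, which was 0.16, 0.03, and 0.06 in OVCAR5R replicates 1, 2, and 3 relative to the OVCAR5 mean. AKR1B1, which encodes aldose reductase and begins 85.2 kb away, had values of 93.6, 121, and 153 in OVCAR5 against 106, 112, and 135 in OVCAR5R. Its log2 fold change was -0.04 (SE 0.23, adjusted p = 0.974, limma), and its libraries overlapped. AKR1B15, which begins 21.5 kb from AKR1B10, had no row.

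By the root mean square difference of centered log2 values over the 6 libraries, the 5 genes most like AKR1B10 among 9741 candidates with a mean value of at least 10 were SLC37A2 (0.49), TIMP3 (0.50), SPRY1 (0.53), S100A4 (0.55), and STS (0.58). SLC37A2, the nearest, had values of 39.4, 83.8, and 60.5 in OVCAR5 against 5.30, 10.5, and 7.70 in OVCAR5R. With SPRY1, an inhibitor of receptor tyrosine kinase signaling, the values were 48.8, 48.7, and 26.8 against 5.16, 4.85, and 4.47. Each of these 5 genes was far lower in every OVCAR5R library than in any OVCAR5 library. Within OVCAR5, SLC37A2 and S100A4 were highest in replicate 2 as AKR1B10 was, whereas TIMP3 was highest in replicate 3 and SPRY1 and STS in replicate 1. The measure is a description over 6 libraries in which the difference between the lines weighs most.

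AKR1C1, AKR1C2, and AKR1C3 encode hydroxysteroid dehydrogenases that also reduce prostaglandins and other carbonyls. They lie next to one another on chromosome 10, at 4963253 to 4983283, 4987400 to 5018031, and 5035354 to 5107686. Their values were highest in OVCAR5 replicate 3. AKR1C1 had 5.08, 4.96, and 21.4 in OVCAR5 against 2.39, 1.28, and 1.53 in OVCAR5R. AKR1C2 had 10.2, 11.8, and 71.1 in OVCAR5 against 2.84, 2.14, and 1.36 in OVCAR5R. AKR1C3, which makes active androgens and estrogens from their precursors, had 7.28, 11.3, and 18.8 in OVCAR5 against 3.68, 3.40, and 2.20 in OVCAR5R. For each of these genes the lines did not overlap, and the OVCAR5 libraries were spread far more than those of OVCAR5R. Within OVCAR5 the highest library exceeded the lowest 6.95-fold for AKR1C2, 4.32-fold for AKR1C1, and 2.58-fold for AKR1C3. The log2 fold changes were -1.79 (SE 0.53) for AKR1C1, -2.84 (SE 0.67) for AKR1C2, and -1.64 (SE 0.37) for AKR1C3. Without OVCAR5 replicate 3 they were -1.16, -1.97, and -1.32, and without OVCAR5 replicate 2 they were -2.11, -3.22, and -1.66.

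The AKR1C genes are close copies, and the counter's treatment of shared reads is not given in the sources used here. Of the 50-base windows of the longest coding transcript, 50.8% of those of AKR1C2 recurred in AKR1C1, 28.3% of those of AKR1C1 recurred in AKR1C2, and 12.1% of those of AKR1C3 recurred in another gene. The split between AKR1C1 and AKR1C2 is therefore uncertain. Their sum does not depend on how reads were divided between them, but would change if shared reads were dropped or counted for both. The sum of all 3 genes was 22.6, 28.0, and 111 in OVCAR5 against 8.92, 6.83, and 5.09 in OVCAR5R. The lowest OVCAR5 library was above every OVCAR5R library on the sum as well, and the means differed 7.77-fold, or 3.64-fold without OVCAR5 replicate 3, which provided most of the OVCAR5 total. The 26 other tested genes within 5 Mb were at a median of -0.14 on the log2 scale, and 6 of them were lower without overlap and 0 higher. Their medians were 0.03, -0.21, and -0.32 in OVCAR5R.

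The likeness of AKR1C1 and AKR1C2 extends to their promoters, shown because these neighboring genes had the same direction. The 250 bases before each annotated start were taken from RefSeq promoters on GRCh38.p14, at chr10:4963165-4963414 (plus strand) and chr10:5003858-5004107 (minus strand). Aligned at the best offset without gaps, 245 of 246 bases were the same (99.6%). Neither window holds the core of the antioxidant response element, TGACNNNGC on either strand, so no base is capitalized.
AKR1C1: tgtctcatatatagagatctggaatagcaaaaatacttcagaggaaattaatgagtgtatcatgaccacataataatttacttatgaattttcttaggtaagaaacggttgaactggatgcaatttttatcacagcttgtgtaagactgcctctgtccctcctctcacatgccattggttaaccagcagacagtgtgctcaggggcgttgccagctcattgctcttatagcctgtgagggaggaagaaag
AKR1C2: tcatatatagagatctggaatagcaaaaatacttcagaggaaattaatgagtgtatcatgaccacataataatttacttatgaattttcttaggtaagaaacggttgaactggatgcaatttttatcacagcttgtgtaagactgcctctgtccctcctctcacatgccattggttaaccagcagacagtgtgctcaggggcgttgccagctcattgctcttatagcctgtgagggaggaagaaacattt

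NQO1 reduces quinones without leaving a radical intermediate and is a standard readout of NRF2. It lies on chromosome 16 from 69706996 to 69726951 (minus strand). Its values were 301, 808, and 795 in OVCAR5 against 572, 207, and 206 in OVCAR5R. One library of each line stood apart from the other two, and the lines overlapped, since OVCAR5R replicate 1 exceeded OVCAR5 replicate 1. The means were 635 ± 289 and 328 ± 211 (SD, n = 3 each). The log2 fold change was -0.99 (SE 0.51), and it was -1.46 without OVCAR5 replicate 1, -1.48 without OVCAR5R replicate 1, and -0.75 without OVCAR5 replicate 2. NQO1 lies among genes that were themselves lower in OVCAR5R. The 92 tested genes within 5 Mb were at a median of -0.49 on the log2 scale, 87 of them had a lower mean in OVCAR5R, and 20 were lower without overlap. Their medians were -0.27, -0.18, and -0.996 in OVCAR5R replicates 1, 2, and 3, whereas NQO1 itself was equally low in replicates 2 and 3. The part of this region in the level of NQO1 was not tested.

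HMOX1, the inducible heme oxygenase, breaks heme down to biliverdin, iron, and carbon monoxide. It lies on chromosome 22 from 35380361 to 35394214 (plus strand). Its values were 50.5, 64.5, and 22.8 in OVCAR5 against 14.6, 44.4, and 28.1 in OVCAR5R. The lines overlapped and each was spread about 3-fold, with a range of 2.83-fold in OVCAR5 and 3.04-fold in OVCAR5R. The log2 fold change was -0.65 (SE 0.48) and varied with single libraries. It was -0.25 without OVCAR5R replicate 1, -0.35 without OVCAR5 replicate 2, -1.02 without OVCAR5R replicate 2, and -1.08 without OVCAR5 replicate 3. The 92 tested genes within 5 Mb of HMOX1 had a median of -0.55, of which 30 were lower and 1 was higher without overlap. Their medians were -0.77, -0.70, and -0.18 in OVCAR5R replicates 1, 2, and 3. These medians and HMOX1 were both lowest in replicate 1, while the medians were highest in replicate 3 and HMOX1 in replicate 2. TIMP3, already named for its likeness to AKR1B10, was the lowest of these neighbors (-2.78) and SELENOM the highest (1.48). The part of this region in the level of HMOX1 was not tested.

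**Figure D2:**
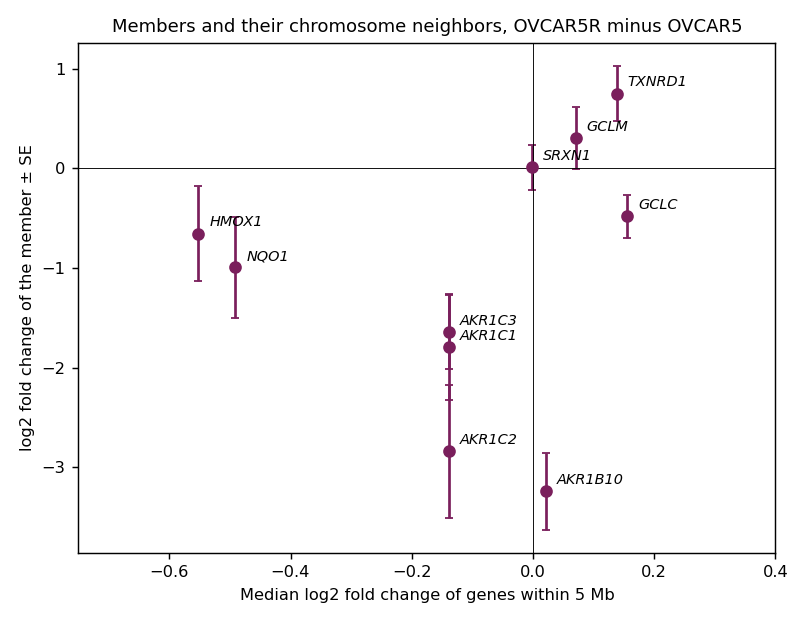
Log2 fold change (OVCAR5R minus OVCAR5) of each member with its SE, against the median log2 fold change of the tested genes within 5 Mb of its start, members left out. NQO1 and HMOX1 lie left of zero, at neighbor medians of -0.49 and -0.55, while AKR1B10 lies at 0.02 with a log2 fold change of -3.24.

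GCLC and GCLM are the catalytic and the modifier subunit of glutamate-cysteine ligase, which carries out the rate-limiting step of glutathione synthesis. GCLC, on chromosome 6 from 53497341 to 53616970 (minus strand), had values of 53.5, 64.5, and 65.7 in OVCAR5 against 41.5, 37.1, and 53.0 in OVCAR5R. The lines did not overlap, but 53.5 in the lowest OVCAR5 culture nearly met 53.0 in the highest OVCAR5R culture. The log2 fold change was -0.48 (SE 0.21), while the 21 tested neighbors within 5 Mb had a median of 0.16. GCLM, on chromosome 1 from 93885205 to 93909456 (minus strand), had values of 21.3, 26.6, and 32.9 in OVCAR5 against 35.7, 21.8, and 46.2 in OVCAR5R. Its lines overlapped through OVCAR5R replicate 2, and its log2 fold change was 0.31 (SE 0.31). It was 0.60 without that library and 0.07 without OVCAR5R replicate 3, and 0.15 without OVCAR5 replicate 1.

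The transcripts of these subunits stood in a different proportion in the lines, and the values are of RNA only. The ratio of GCLM to GCLC, each divided by the length of its exons, was 0.517, 0.537, and 0.651 in OVCAR5 against 1.12, 0.763, and 1.13 in OVCAR5R. The lines did not overlap, and the mean ratio was 1.77-fold higher in OVCAR5R. This ratio was computed after the values of both genes had been seen and is not tested.

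SRXN1, sulfiredoxin, repairs peroxiredoxins that peroxide has over-oxidized. It lies on chromosome 20 from 646615 to 653370 (minus strand). Its values were 170, 183, and 221 in OVCAR5 against 180, 161, and 242 in OVCAR5R. The lines lay within the same range, and the log2 fold change was 0.01 (SE 0.22), with either sign when a library was left out (-0.16 to 0.13). Of the 50-base windows of its transcript, 84.8% recurred in AL121758.1, a gene model that overlaps it, and how the counter divided such reads is not given in the sources used here.

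TXNRD1 is the cytosolic thioredoxin reductase, a selenoprotein that returns oxidized thioredoxin to its active form with NADPH. It lies on chromosome 12 from 104215779 to 104350305 (plus strand). Its values were 753, 780, and 1081 in OVCAR5 against 1518, 1064, and 1867 in OVCAR5R. The lines overlapped by 1 narrow crossing, of OVCAR5R replicate 2 at 1064 with OVCAR5 replicate 3 at 1081. The log2 fold change was 0.75 (SE 0.28), which ranked 452 from the highest of the 11766 genes, and the means were 871 ± 182 and 1483 ± 403 (SD, n = 3 each), 1.70-fold higher in OVCAR5R. It was 0.97 without OVCAR5R replicate 2 and 0.56 without OVCAR5R replicate 3. TXNRD1 shared no 50-base window with a transcript of another gene, and the 46 tested genes within 5 Mb had a median of 0.14.

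The 5 genes whose profile was nearest to that of TXNRD1 by the same measure were ADCY3 (0.15), GNPNAT1 (0.15), RRM2 (0.16), LETM1 (0.16), and PHKA1 (0.16). RRM2, the small subunit of ribonucleotide reductase, had values of 296, 237, and 408 in OVCAR5 against 477, 347, and 548 in OVCAR5R. For RRM2, as for TXNRD1, OVCAR5R replicate 3 was the highest and replicate 2 the lowest library of its line.

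The promoters of GCLM and TXNRD1 are shown because these were the only members with a match to TGACNNNGC among the 8 that RefSeq promoters on GRCh38.p14 contained. The 300-base windows searched, from 250 bases before to 50 bases after a start, held a match in 16.1% of 27305 promoters. AKR1C1, AKR1C2, AKR1C3, NQO1, GCLC, and SRXN1 had no match in this window, which says nothing of elements farther away. GCLM had 1 match, on the strand opposite to the gene with its first base 34 bases before the start, in the window chr1:93909431-93909680 (minus strand). TXNRD1 had 2 annotated starts, of which the one downstream had 1 match on the strand opposite to the gene, 102 bases before the start, in the window chr12:104286782-104287031 (plus strand). The other start of TXNRD1 had a match on each strand, at 99 and 8 bases before it. The matches are capitalized, none overlaps the AP-1 motif TGANTCA, and a match is a description of the sequence only.
GCLM: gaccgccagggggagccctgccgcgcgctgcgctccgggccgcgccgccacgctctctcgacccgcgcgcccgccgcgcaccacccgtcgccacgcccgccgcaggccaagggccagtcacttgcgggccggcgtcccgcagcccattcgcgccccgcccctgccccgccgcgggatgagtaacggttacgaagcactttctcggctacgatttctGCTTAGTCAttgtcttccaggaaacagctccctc
TXNRD1: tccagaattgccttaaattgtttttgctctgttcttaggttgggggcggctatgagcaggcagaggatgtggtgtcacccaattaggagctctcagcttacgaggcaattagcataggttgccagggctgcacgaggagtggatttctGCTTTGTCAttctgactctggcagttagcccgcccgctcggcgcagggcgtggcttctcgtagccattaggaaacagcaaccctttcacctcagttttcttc

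Levels between members were compared only per kb of exon length in GENCODE release 29. In OVCAR5 the order was NQO1 at 203 per kb, TXNRD1 at 173, SRXN1 at 70.8, HMOX1 at 25.2, AKR1B10 at 15.4, GCLC at 9.61, AKR1C2 at 7.21, AKR1C3 at 5.58, GCLM at 5.49, and AKR1C1 at 1.48. In OVCAR5R TXNRD1 came first at 294 per kb and NQO1 second at 105, and AKR1B10 was at 1.11. The top pair of OVCAR5 did not differ beyond the spread of NQO1 between its libraries. The union of all annotated exons was used as length, so a gene with long alternative exons, such as AKR1C1, is set low.

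**Figure D3:**
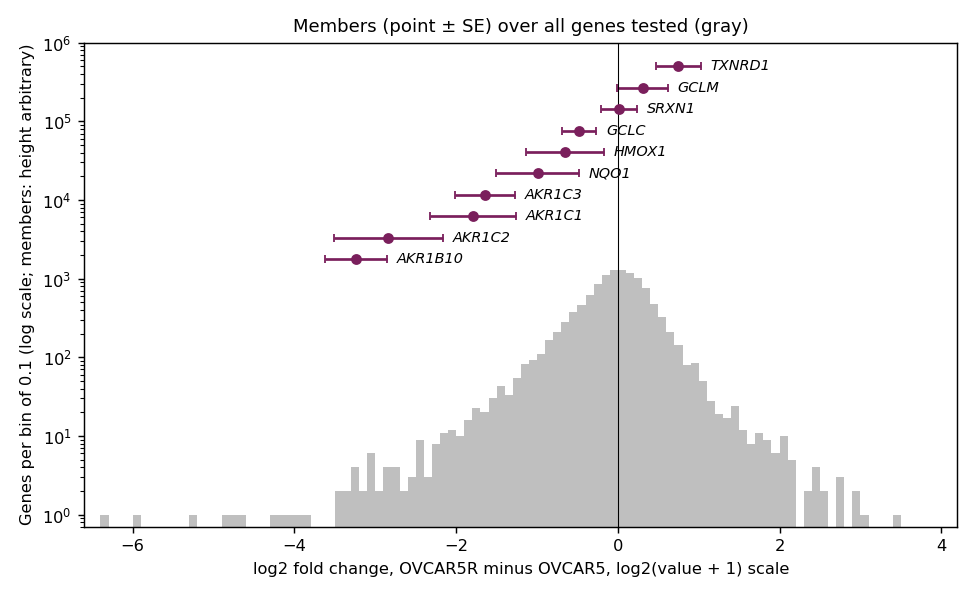
Distribution of the log2 fold change (OVCAR5R minus OVCAR5, log2(value + 1) scale) over the 11766 genes tested, in gray on a log axis of genes per bin, with the 10 members as points with their SE at arbitrary heights. The members spread from AKR1B10 at -3.24 to TXNRD1 at 0.75, and SRXN1 lies at 0.01.

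The other genes of the pathway were described through 10 lists of 153 genes, members left out, of which 130 were tested. None of the 130 (0 genes) passed an adjusted p of 0.05 with limma, while the unadjusted p was under 0.05 for 23 (17.7%), 18 of which were lower in OVCAR5R, where 10.4% of all tested genes had one. The share with an unadjusted limma p under 0.05 was 12.3% without OVCAR5 replicate 2, close to 10.8% of all tested genes. It was 20% beside 8.63% without OVCAR5 replicate 1, and 22.3% beside 14.6% without OVCAR5 replicate 3. Of the 130 genes, 19 were lower (14.6%) and 6 higher (4.62%) in OVCAR5R without overlap. Without OVCAR5 replicate 2 these were 16.2% and 10.8%, where 13.7% and 13.8% of all tested genes did not overlap. Without OVCAR5 replicate 1 the shares were 26.2% and 8.46% beside 12.4% and 13.0% of all tested genes, and without OVCAR5 replicate 3 they were 25.4% and 9.23% beside 16.4% and 16.8%. The median log2 fold change over the 130 genes was -0.11, and -0.05 without OVCAR5 replicate 2, beside -0.01 over all tested genes.

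**Figure D4:**
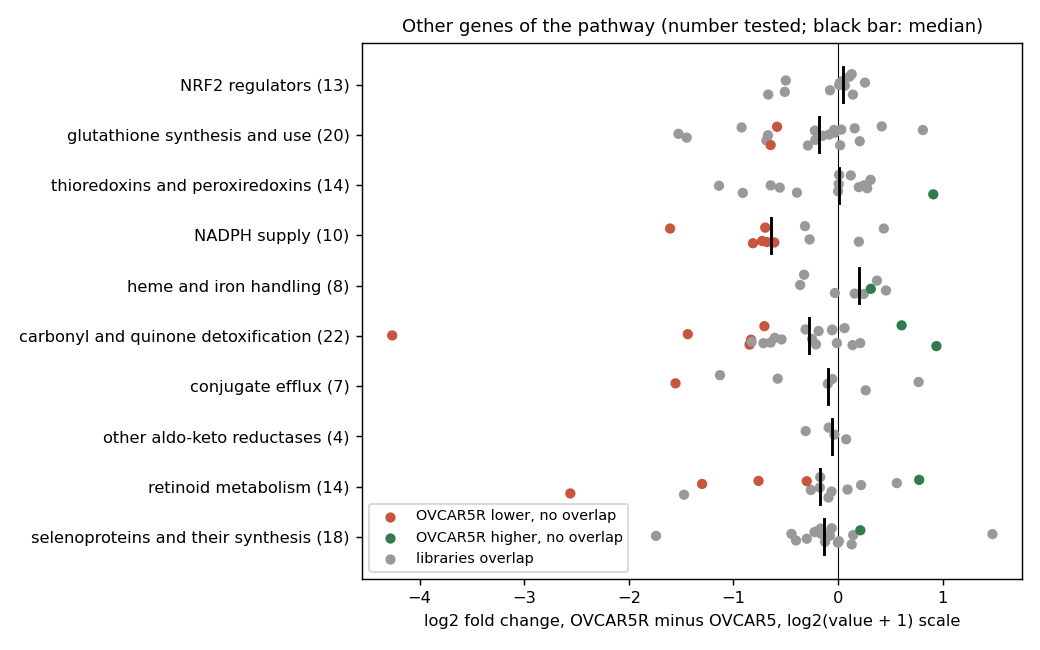
Log2 fold change (OVCAR5R minus OVCAR5) of the 130 other pathway genes tested, 1 row per list with the number tested, black bars for medians, and colors for genes whose libraries did not overlap. Of the NADPH supply genes 8 lie left and 2 right of zero, with a median of -0.65, while the NRF2 regulators center on 0.04.

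None of the 13 NRF2 regulators had a limma adjusted p under 0.05 or an unadjusted p under 0.05, and none was without overlap. NFE2L2 itself had values of 166, 143, and 119 in OVCAR5 against 127, 160, and 141 in OVCAR5R, with a log2 fold change of 0.01 (SE 0.21, adjusted p = 0.994, limma). KEAP1 had 87.2, 90.2, and 104 in OVCAR5 against 103, 99.1, and 109 in OVCAR5R, with a log2 fold change of 0.14 (SE 0.18, adjusted p = 0.824, limma). For the factor and for its inhibitor the libraries of the lines overlapped. The lowest regulator was RBX1, a ring subunit of the ubiquitin ligase (-0.67, SE 0.31), and the highest was BACH1, a repressor at the same elements (0.26, SE 0.41). Without OVCAR5 replicate 2 they were at -0.37 and -0.13, so that the sign of BACH1 turned and it was no longer the highest.

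Genes of pathways that supply NADPH, the cofactor of NQO1, TXNRD1, and the aldo-keto reductases, were the list with the lowest median. Of its 10 genes, all tested, 8 had a lower mean in OVCAR5R and 6 were lower without overlap, against 8.18% of all tested genes. The median log2 fold change was -0.65. Without OVCAR5 replicate 2, 6 were again lower without overlap and 1, ME1, was higher, where 13.7% and 13.8% of all tested genes were. The median was then -0.44. Unadjusted limma p-values were under 0.05 for the same number, 6 genes, which was 4 without OVCAR5 replicate 2, 3 without OVCAR5R replicate 1, and 3 without OVCAR5R replicate 3, while the adjusted p-values over all genes lay between 0.301 and 0.778. This list was singled out after its values were seen.

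The 6 genes belonged to several pathways that hold a step of NADPH production, and not each of them encodes the enzyme of that step. PGD, a dehydrogenase of the pentose phosphate pathway, had 224, 298, and 291 in OVCAR5 against 168, 164, and 165 in OVCAR5R, with a log2 fold change of -0.70 (SE 0.19, adjusted p = 0.301, limma). PGLS, the lactonase of that pathway, and TKT, transketolase, had log2 fold changes of -0.73 (SE 0.28) and -0.61 (SE 0.23). These 3 genes were each lower in every OVCAR5R library than in any OVCAR5 library, although none passed the adjusted threshold. IDH1, the cytosolic isocitrate dehydrogenase, had 164, 267, and 67.8 in OVCAR5 against 39.2, 59.3, and 43.5 in OVCAR5R, with a log2 fold change of -1.61 (SE 0.46, adjusted p = 0.306, limma), which was -1.16 without OVCAR5 replicate 2. NNT, the mitochondrial transhydrogenase, was at -0.81 (SE 0.24) and ME3, a mitochondrial malic enzyme, at -0.68 (SE 0.23). The remaining 4 genes overlapped, with ME2 the highest at 0.44 (SE 0.28), ME1, a cytosolic malic enzyme and known NRF2 target, at 0.20 (SE 0.21), TALDO1 at -0.27 (SE 0.28), and IDH2 at -0.32 (SE 0.28). Without OVCAR5 replicate 2 PGLS was at -0.45, ME2 at 0.17, TALDO1 at -0.11, and IDH2 at -0.04.

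**Figure D5:**
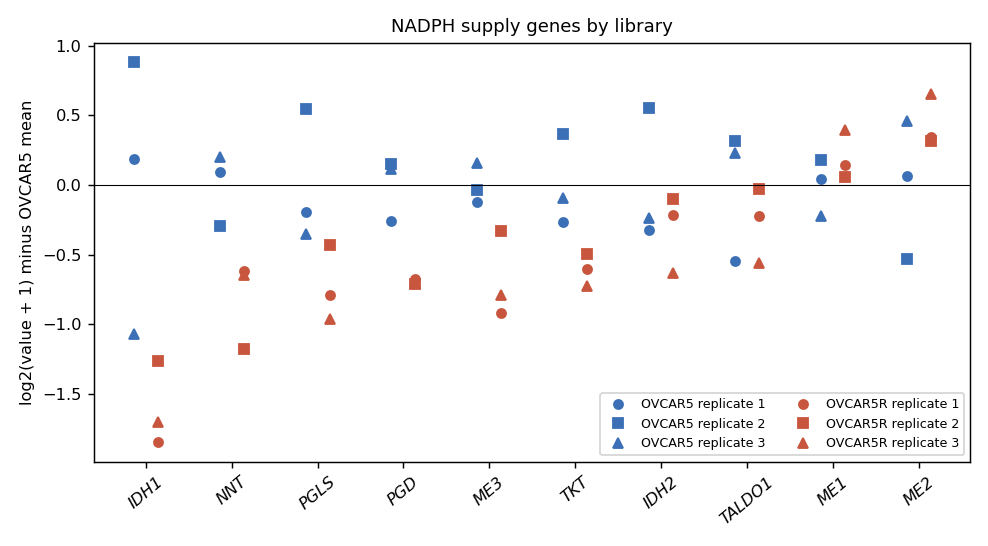
Log2(value + 1) of the 10 NADPH supply genes in each library minus the OVCAR5 mean of that gene, with circles, squares, and triangles for replicates 1, 2, and 3. For the 6 genes from IDH1 to TKT every red point (OVCAR5R) lies below every blue point (OVCAR5), and IDH1 spreads widest within OVCAR5.

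Among 20 tested genes of glutathione synthesis and use, 14 had a lower mean in OVCAR5R, 2 were lower without overlap, and the median was -0.18. Without OVCAR5 replicate 2, GPX1, GSTM4, GSTP1, GSTZ1, and MGST1 turned from lower to higher (0.18, 0.17, 0.26, 0.15, and 0.14). No tested gene of the list turned the other way. Its lean toward lower values thus rested on that library, and without it more genes of the list were higher than lower. The lowest was SLC7A11, the cystine importer that feeds glutathione synthesis and a known NRF2 target, with 404, 142, and 294 in OVCAR5 against 164, 36.7, and 114 in OVCAR5R. Its log2 fold change was -1.53 (SE 0.58, adjusted p = 0.419, limma), its lines overlapped through OVCAR5 replicate 2, and without that library it was -1.95. SLC3A2, the heavy chain that partners it, had 506, 594, and 435 in OVCAR5 against 366, 301, and 353 in OVCAR5R, and GSTK1, a glutathione transferase, was the other gene lower without overlap (-0.64, SE 0.32, and -0.38 without OVCAR5 replicate 2). The highest was GSTM3, another glutathione transferase, at 0.81 (SE 1.04) with wide overlap, or 1.61 without OVCAR5 replicate 2.

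Of 14 tested thioredoxins and peroxiredoxins, 1 gene was without overlap, TXNRD2, the mitochondrial thioredoxin reductase, and it was also the highest of the list. It had 50.4, 36.8, and 76.7 in OVCAR5 against 89.6, 124, and 88.0 in OVCAR5R, with a log2 fold change of 0.91 (SE 0.30, adjusted p = 0.356, limma). TXNRD3, the other thioredoxin reductase of the list, overlapped at 0.01 (SE 0.23). The lowest was TXNIP, an inhibitor of thioredoxin, at -1.14 (SE 0.89), or -0.21 without OVCAR5 replicate 2. The median of the list was 0.01.

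The 22 tested genes of carbonyl and quinone detoxification had a median of -0.28, with 5 lower and 2 higher without overlap. ALDH3A1, a dehydrogenase of aromatic and lipid aldehydes, was the lowest, with 2.61, 202, and 16.8 in OVCAR5, 0.434 and 0.280 in OVCAR5R replicates 1 and 3, and a listed 0 in OVCAR5R replicate 2. Its log2 fold change of -4.26 (SE 1.23, adjusted p = 0.306, limma) rested in part on OVCAR5 replicate 2 and was -2.71 without it. ALDH3B1, another aldehyde dehydrogenase, had 84.9, 170, and 58.1 in OVCAR5 against 32.2, 45.1, and 27.5 in OVCAR5R, with a log2 fold change of -1.44 (SE 0.39, adjusted p = 0.298, limma), or -1.02 without OVCAR5 replicate 2. The other genes lower without overlap were ALDH3A2, UGDH, and ADH5, between -0.85 and -0.70. The higher genes were ALDH9A1 at 0.61 (SE 0.23) and EPHX2 at 0.94 (SE 0.38), the latter from values under 0.6 in OVCAR5 to between 1.27 and 2.01 in OVCAR5R.

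The 14 tested genes of retinoid metabolism, into which AKR1B10 feeds as a retinaldehyde reductase, had a median of -0.17, with 4 lower and 1 higher without overlap. RDH10, which oxidizes retinol in the opposite direction to AKR1B10, had 61.2, 39.6, and 43.3 in OVCAR5 against 15.0, 15.0, and 28.2 in OVCAR5R. Its log2 fold change was -1.30 (SE 0.30), with the lowest adjusted p of all pathway genes (0.243, limma). The receptors RARG (-0.76, SE 0.23) and RXRA (-0.30, SE 0.20) were also lower without overlap. DHRS9, a retinol dehydrogenase, was the lowest at -2.56 (SE 1.21), from 2.63, 162, and 6.74 in OVCAR5 to between 1.65 and 2.09 in OVCAR5R, and was -0.91 without OVCAR5 replicate 2. CYP26B1, which breaks down retinoic acid, was the highest at 0.78 (SE 0.25) and higher without overlap. Without OVCAR5 replicate 2 the highest was ALDH1A3 at 1.55 (SE 0.30, adjusted p = 0.135, limma), above CYP26B1 at 0.86. ALDH1A3 had 97.2, 856, and 123 in OVCAR5 against 232, 315, and 455 in OVCAR5R, or 0.56 (SE 0.75) with all libraries. CRABP2 and RDH11 turned from lower to higher without OVCAR5 replicate 2 (0.72 and 0.11). No tested gene of the list turned the other way, so the list leaned less toward lower values without that library.

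Of 7 tested transporters of conjugate efflux, ABCC3 was the lowest and the 1 gene without overlap, with 58.5, 177, and 104 in OVCAR5 against 27.5, 28.2, and 51.6 in OVCAR5R. Its log2 fold change was -1.55 (SE 0.42, adjusted p = 0.298, limma), or -1.16 without OVCAR5 replicate 2, and ABCC4 was the highest at 0.77 (SE 0.60). That value of ABCC4 came from OVCAR5 replicate 2 and was -0.01 without it, no longer the highest. The 8 tested genes of heme and iron handling had a median of 0.20, between BLVRB, a biliverdin reductase, at -0.36 (SE 0.45) and TFRC, the transferrin receptor, at 0.46 (SE 0.28), and FECH, which makes heme, was higher without overlap (0.31, SE 0.22). Without OVCAR5 replicate 2 BLVRB turned to 0.19 and TFRC was also at 0.19. The 4 other aldo-keto reductases tested all overlapped and lay between AKR1A1 at -0.31 (SE 0.33) and AKR7A2 at 0.08 (SE 0.28), and without OVCAR5 replicate 2 these were at 0.01 and 0.23. The 18 selenoproteins and their synthesis genes had a median of -0.13, with SELENOP lowest at -1.74 (SE 0.74), SELENOM highest at 1.48 (SE 0.47), SELENOF lower, and PSTK higher without overlap.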

How the data were processed

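The members, the gene lists, and the tests were chosen with earlier results of these data known. RNA-seq values of 3 OVCAR5 and 3 OVCAR5R cultures were analyzed from the table of normalized signal that the authors deposited. Its linear values are all at least 0. The authors' methods give quartile normalization, the labels name the build hg38, and the aligner, counter, and annotation are not given in the sources used here. Low values are multiples of a step per library, but only 71.7% to 75.8% of values under 200 reads were whole (tolerance 0.01 read), so tests for counts were not used, although the design had named one for the case of counts. An identical copy of 1 row was dropped.

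After a pseudocount of 1 and log2, all genes reaching 1 in 3 or more of the 6 libraries entered a two-sided moderated linear model (limma 3.58.1, lmFit, then eBayes with a mean-variance trend; R 4.3.3), with Benjamini-Hochberg adjustment over those genes and a threshold of 0.05. With 3 libraries a group, exact permutation of 1 gene has a smallest p of 0.1, so the absence of overlap was counted in its place. The fit was tested on simulated data. Estimated reads give counting precision only, and the spread between cultures limits most values.

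Positions and exon lengths came from GENCODE release 29 on GRCh38, matched by symbol for 99.4% of 12305 symbols. Shared sequence was counted as exact 50-base windows. Promoters came from RefSeq (GRCh38.p14) for 8 of 10 members; those of AKR1B10 and HMOX1 are not shown. Named genes were all members, the highest and lowest gene of each list, genes passing the threshold, the 5 nearest profiles of AKR1B10 and TXNRD1, NFE2L2, KEAP1, AKR1B1, and AKR1B15; other list genes without overlap and the remaining NADPH supply genes were named after their values were seen. Genes of the glutathione and retinoid lists named for their values without OVCAR5 replicate 2 were also chosen after these were seen. Plots were made in Python 3.11.15 (matplotlib 3.10.9). A pair of genes of the lists is not reported here and was left out of every list count. Alternatives were 2 other scalings, a pseudocount of 0.1, 2 other filters, limma without trend, the replicate number as a block, and each library left out.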

Additional observations from a re-analysis of the deposited data

How the results depend on the processing

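Every member except SRXN1 kept the sign of its log2 fold change under each alternative that gave a value, and AKR1B10 stayed between -3.85 (pseudocount of 0.1) and -2.97. The adjusted p of AKR1B10 passed 0.05 in 7 of 13 alternatives. It did not with the replicate block or without OVCAR5 replicate 1, OVCAR5 replicate 3, or any of the 3 OVCAR5R libraries. Since AKR1B10 was chosen with this contrast known, these calls only describe the fit and are no test of it. The 14 genes past an adjusted p of 0.05 became 0 to 29 with a library left out: 29 without OVCAR5 replicate 2, 10 without OVCAR5 replicate 3, 4 without OVCAR5R replicate 1, 3 without OVCAR5 replicate 1, 2 without OVCAR5R replicate 2, and 0 without OVCAR5R replicate 3, where 864 genes had an unadjusted p under 0.05. With the replicate block it was 5. The deviations of same-numbered libraries correlated across genes at 0.00, 0.18, and -0.12. This gave no clear sign that replicate numbers pair the cultures, but it cannot exclude shared conditions. With a filter of at least 10 in 3 libraries, AKR1C1 and AKR1C3 were not tested and 3 of 8 members were without overlap in place of 5 of 10. With 1 library left out, 5 to 7 members were without overlap, NQO1 joining the lower ones without OVCAR5 replicate 1 or OVCAR5R replicate 1, HMOX1 joining them and TXNRD1 becoming higher without OVCAR5 replicate 3, and GCLM and TXNRD1 becoming higher without OVCAR5R replicate 2. No pathway gene outside the members passed an adjusted p of 0.05 in any alternative. Quantile normalization left 10.9% of all tested genes higher and 6.88% lower without overlap. In the OVCAR5R libraries the members AKR1B10 and AKR1C1 to AKR1C3 rest on few estimated reads (57.0 to 169 for AKR1B10), where counting error is largest.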
